A study of Homo sapiens with 24 samples.

Results

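Low-dose sorafenib was given to 2 human biliary tract cancer cell lines, and the measurement described here is the difference between their transcriptional responses: the log2 fold change of each gene in OCUG-1 minus that in HuCCT1. HuCCT1, from an intrahepatic cholangiocarcinoma, was grown in RPMI-1640. OCUG-1, from a gallbladder cancer, was grown in DMEM, so the medium changed with the line, and each line stands for 1 tumour. Cells received 1.25 µM sorafenib or matched DMSO vehicle for 72 h, and total RNA was read as bulk messenger RNA libraries. The comparison used the 3 vehicle and 3 sorafenib libraries of each line, 12 of the 24 libraries of the series, labelled as independent biological replicates. Count tables of both lines were joined by Ensembl gene ID, all 12 libraries entered 1 fit, and every gene that passed the low-count filter was a member, 20368 genes in all. A gene is called when its adjusted p (edgeR quasi-likelihood test, Benjamini-Hochberg, two-sided) was under 0.05. A positive difference, called higher, means that the OCUG-1 response lay above the HuCCT1 response, and a negative one, called lower, that it lay below.

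Sorafenib is an oral inhibitor of several kinases, among them the RAF kinases of the RAS-RAF-MEK-ERK cascade and the receptors for VEGF and PDGF. In cells with an active cascade, ERK drives transcription of ETS factors, of feedback inhibitors of the SPRY, SPRED and DUSP families and of D-type cyclins. At low dose, RAF inhibitors can also promote RAF dimers and raise ERK signalling in some cells. Entry into the cell cycle releases E2F factors, which induce genes of DNA replication, and later the genes of mitosis, whose promoters often carry a cell-cycle homology element. Amino acid or endoplasmic reticulum stress acts through the translation factor eIF2 and the activator ATF4, which induces amino acid synthesis and transport genes and many tRNA synthetases.

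HuCCT1 libraries held 18238834 to 28036008 counts in total, and those of OCUG-1 held 14388855 to 22823918. Replicates spread with a biological coefficient of variation of 0.137. Of the variance, 88.0% lay on a first principal component that separated the lines, with 3.02% and 2.38% on the next 2. Of 14 biliary epithelial markers, 10 reached 10 CPM (counts scaled to library depth by trimmed means, edgeR's CPM) in each line, led by KRT7 in HuCCT1 and KRT8 in OCUG-1. Of 8 fibroblast markers, 2 reached 10 CPM in each line, with the highest means for LUM in HuCCT1 (23.1 CPM) and COL1A1 in OCUG-1 (86.0 CPM). Of 10 hepatocyte markers, 2 did so in HuCCT1 and 1 in OCUG-1. None of 7 endothelial or 9 immune markers reached 10 CPM in either line. What part these markers have in the results was not tested. Mitochondrially encoded transcripts took 10.97% ± 3.56 (SD, n = 3) of the counts of HuCCT1 vehicle and 17.9% ± 4.83 of those with sorafenib, against 12.2% ± 1.26 and 11.1% ± 1.89 in OCUG-1. Replicate 3 stood apart from the other 2 replicates in both HuCCT1 groups, with a mitochondrial share of 12.5% against 21.8% and 19.4% with sorafenib and of 7.08% against 11.8% and 14.1% in vehicle. Without these 2 libraries, 2570 differences were called in place of 1926. In bulk RNA, fewer cells of a state and less RNA per cell cannot be told apart, which holds for every level given here.

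The response differed between the lines for 1926 of 20368 genes (9.46%): 942 were called higher (4.62%) and 984 lower (4.83%), and 794 of the 1926, 286 higher and 508 lower, differed by at least 1 on the log2 scale. In HuCCT1, 3475 genes (17.1%) changed with sorafenib, 1854 up (9.1%) and 1621 down (7.96%). In OCUG-1, 2013 genes (9.88%) changed, 1210 up (5.94%) and 803 down (3.94%). In all, 525 genes changed in both lines, which is 15.1% of the HuCCT1 calls and 26.1% of the OCUG-1 calls, 379 of them in the same direction and 146 in opposite directions. Across genes, the Pearson correlation of the 2 responses was 0.037 (20368 genes, which are not independent of each other). The median difference over all genes was -0.02.

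Most of the called differences came with a change that was called in 1 line and not in the other. Among the 942 called higher, 435 fell in HuCCT1 with no call in OCUG-1, 284 rose in OCUG-1 with no call in HuCCT1, and 84 fell in HuCCT1 and rose in OCUG-1. Among the 984 called lower, 571 rose in HuCCT1 with no call in OCUG-1, 212 fell in OCUG-1 with no call in HuCCT1, and 62 rose in HuCCT1 and fell in OCUG-1. A further 131 and 128 had no call in either line alone. Of the 1926 genes, 804 were called under each of 20 alternative settings. The total moved by over 1.5 times with single libraries: it was 1077, 1019 and 3208 without HuCCT1 sorafenib replicates 1, 2 and 3, 1181 and 1108 without OCUG-1 vehicle replicates 1 and 3, and 1038 and 1130 without OCUG-1 sorafenib replicates 2 and 3. Scaling by library size alone, without trimmed means, moved the median of all genes (-0.13 for HuCCT1, -0.12 for OCUG-1) and the share of rises among the calls from 53.4% to 27.9% in HuCCT1 and from 60.1% to 23.6% in OCUG-1. The share of higher calls in the difference itself was 48.9% in the fit as reported and 46.9% with library size alone.

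**Figure D1:**
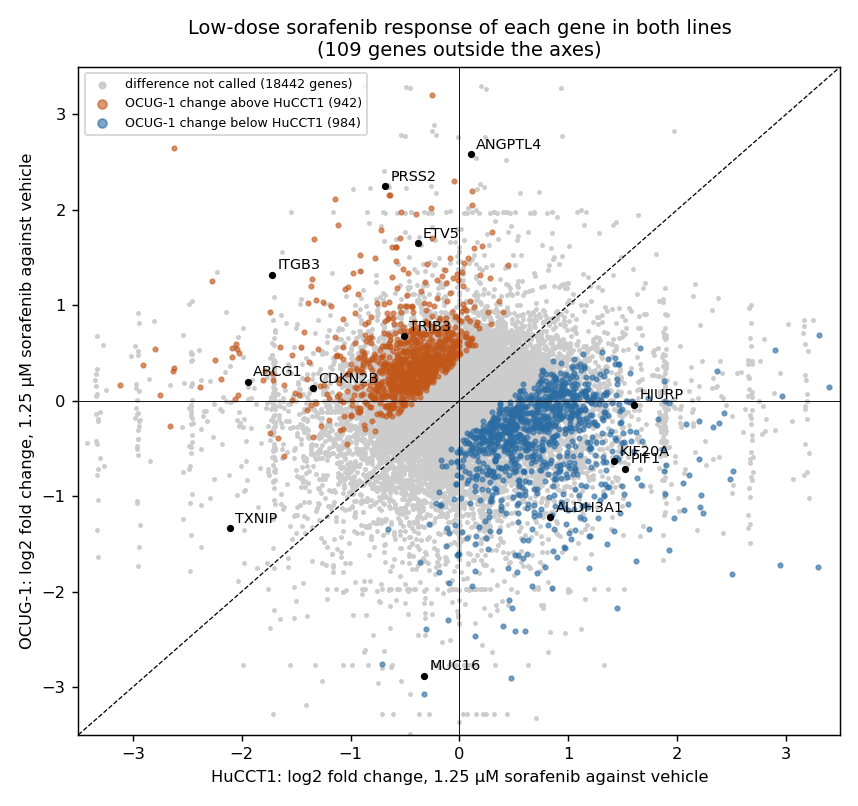
Each point is 1 of 20368 genes, with its log2 fold change (1.25 µM sorafenib against vehicle) in HuCCT1 on the x axis and in OCUG-1 on the y axis. Orange and blue points are the 942 and 984 genes whose difference was called, grey points the rest, and the dashed line marks equal responses. The named genes lie off that line, TXNIP (fell in both lines) nearest to it, and 109 genes lie outside the axes.

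Most genes of cell division rose in HuCCT1 and for the most part had no call in OCUG-1. Of 30 genes of mitosis, 25 were called lower and none higher, with a median difference of -0.97. In HuCCT1 27 of the 30 rose and none fell (median log2 fold change 0.95), whereas in OCUG-1 1 rose, 3 fell and the median was -0.04. KIF20A (chr5:138178719-138187715, GRCh38), a kinesin of the central spindle, was at 68.8, 89.7 and 92.4 CPM in HuCCT1 vehicle and 246, 234 and 192 CPM with sorafenib. In OCUG-1 it was at 217, 186 and 167 CPM and then 140.3, 122 and 105 CPM. All sorafenib libraries were above vehicle in HuCCT1 and below it in OCUG-1, the log2 fold changes were 1.42 and -0.63, and the difference was -2.06 ± 0.20 (SE, adjusted p 4.4e-05).

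HJURP, the chaperone that loads the centromeric histone CENPA, was at 46.9, 56.3 and 52.1 CPM in HuCCT1 vehicle and 172, 167 and 134 CPM with sorafenib. The OCUG-1 libraries were at 166, 128 and 131 CPM in vehicle and 168, 134 and 111 CPM with sorafenib, so the groups were apart in HuCCT1 and overlapped in OCUG-1. The log2 fold changes were 1.61 ± 0.15 for HuCCT1 and -0.04 ± 0.15 for OCUG-1, a difference of -1.65 (adjusted p 0.00022). ESPL1, the separase that cleaves cohesin at anaphase, was at 23.2, 28.6 and 33.9 and then 67.5, 65.6 and 63.6 CPM in HuCCT1, and at 100.4, 82.8 and 89.9 and then 74.3, 63.3 and 57.5 CPM in OCUG-1. It rose in HuCCT1 and fell in OCUG-1 with no overlap of libraries in either, and the difference was -1.69 ± 0.19 (adjusted p 8.4e-05). CENPE, a kinesin of the kinetochore, did the same at a smaller size (0.90 in HuCCT1, -0.36 in OCUG-1). The outer kinetochore subunit NDC80, the kinase AURKB and the proliferation antigen MKI67 rose by 1.33, 1.34 and 0.91 in HuCCT1, and their OCUG-1 values were -0.12, -0.04 and -0.20, none of them called.

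For each mitosis gene, the group mean CPM + 0.5 of OCUG-1 was divided by that of HuCCT1. The median log2 ratio over the list was 0.74 in vehicle and -0.23 with sorafenib. The list members with no called difference, named after their values were seen, were PLK1 (difference -0.76), BIRC5 (-0.68), BUB1 (-0.46), PRC1 (-0.11) and MAD2L1 (0.27). Between 24 and 27 of the 30 were called lower whichever library was left out. With mitochondrial counts removed before scaling, 25 were called lower.

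Most genes of DNA replication rose in HuCCT1 too. Of 37, 24 were called lower and none higher, all 37 differences were negative, and the median was -0.72. In HuCCT1 31 rose and none fell (median 0.89), and in OCUG-1 2 rose and none fell (median 0.09), although with library size as the scaling 2 fell and none rose in OCUG-1 and the median was -0.03. PCNA, the sliding clamp of the replication fork, was at 137, 129 and 108 CPM in HuCCT1 vehicle and 335, 334 and 288 CPM with sorafenib, and at 296, 364 and 335 and then 335, 361 and 367 CPM in OCUG-1. Groups were apart in HuCCT1, with a log2 fold change of 1.36 ± 0.11, and overlapped in OCUG-1, at 0.10 ± 0.11. The thymidine kinase TK1 was at 93.7, 96.6 and 104 and then 224, 224 and 233 CPM in HuCCT1 and at 193, 184 and 180.0 and then 182, 185 and 182 CPM in OCUG-1, a difference of -1.23 ± 0.12 (adjusted p 4.4e-05). LIG1, the ligase that joins Okazaki fragments, and MCM5, a subunit of the replicative helicase, differed by -1.33 and -1.02. The median over the list of the same per-gene log2 ratio of OCUG-1 to HuCCT1 was 0.76 in vehicle and -0.03 with sorafenib.

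The regulators upstream moved with them in part. Among 24 G1 cyclins, cyclin-dependent kinases, their inhibitors and E2F factors, 8 were called lower and 3 higher (median -0.16). Activators and late members of the E2F family were among the lower ones: E2F1 was at 36.6, 32.4 and 36.8 CPM in HuCCT1 vehicle, 81.6, 85.4 and 80.6 CPM with sorafenib, and 55.99, 54.9 and 56.1 and 54.6, 61.3 and 59.5 CPM in the OCUG-1 groups. It rose by 1.23 in HuCCT1 and had a log2 fold change of 0.07 in OCUG-1, with overlapping groups in OCUG-1 only. E2F2 and E2F8 differed by -1.82 and -1.43. CDKN2B, the INK4 inhibitor p15 of CDK4 and CDK6, went the other way: it was at 262, 218 and 212 CPM in HuCCT1 vehicle and 91.1, 92.7 and 89.5 CPM with sorafenib, and at 13.1, 13.4 and 11.4 and then 11.8, 16.5 and 13.04 CPM in OCUG-1. It fell by 1.34 in HuCCT1 and its OCUG-1 change of 0.13 was not called, for a difference of 1.47 ± 0.18 (adjusted p 0.00015). Without HuCCT1 vehicle replicate 1, HuCCT1 sorafenib replicate 1 or OCUG-1 sorafenib replicate 2, 5 of the 24 were called lower in place of 8.

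Promoter sequences are shown for ESPL1 and LIG1, the called members of either list with the largest difference whose promoter held the motif of interest. Cell-cycle homology letters were more frequent in mitosis promoters than in promoters at large, and E2F letters were so in DNA replication promoters. Of the 26 mitosis genes matched by symbol in the RefSeq promoter table (GRCh38.p14), 16 (61.5%) held the cell-cycle homology letters TTTGAA or TTCGAA on either strand in the 250 bases before the start, against 14.6% of 27305 promoters of the same length and 9.91% of 11289 promoters of tested protein-coding genes. The letters CCAAT were in 21 of the 26 (80.8%), against 33.0% of all promoters and 35.1% of those of tested genes. The E-box CACGTG was in 5 of the 26 (19.2%), against 6.49% of all promoters and 8.62% of those of tested genes. Of 32 DNA replication promoters, 11 (34.4%) held the E2F letters TTTCCCGC or TTTGGCGC, against 1.96% of all promoters and 2.99% of those of tested genes, and 2 (6.25%) held the cell-cycle homology letters. These are matches of letters, not sites shown to be bound. The ESPL1 promoter (chr12:53268049-53268298, plus strand) has CCAAT on the minus strand, read as ATTGG 48 bases before the start, and TTTGAA 31 bases before it, both in capitals. The LIG1 promoter (chr19:48170345-48170594, minus strand) has TTTCCCGC 114 bases before the start, in capitals. The CCAAT and TTTGAA matches in ESPL1 do not overlap.
ESPL1: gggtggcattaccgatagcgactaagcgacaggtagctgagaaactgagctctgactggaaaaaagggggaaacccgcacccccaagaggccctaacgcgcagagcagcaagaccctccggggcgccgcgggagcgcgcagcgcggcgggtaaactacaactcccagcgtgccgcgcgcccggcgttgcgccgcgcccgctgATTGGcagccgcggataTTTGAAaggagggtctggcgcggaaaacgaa
LIG1: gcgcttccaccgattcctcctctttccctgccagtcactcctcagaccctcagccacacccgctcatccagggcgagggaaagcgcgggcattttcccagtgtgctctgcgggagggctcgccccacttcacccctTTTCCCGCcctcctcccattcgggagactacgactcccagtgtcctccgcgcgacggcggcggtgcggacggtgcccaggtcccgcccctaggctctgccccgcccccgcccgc

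**Figure D2:**
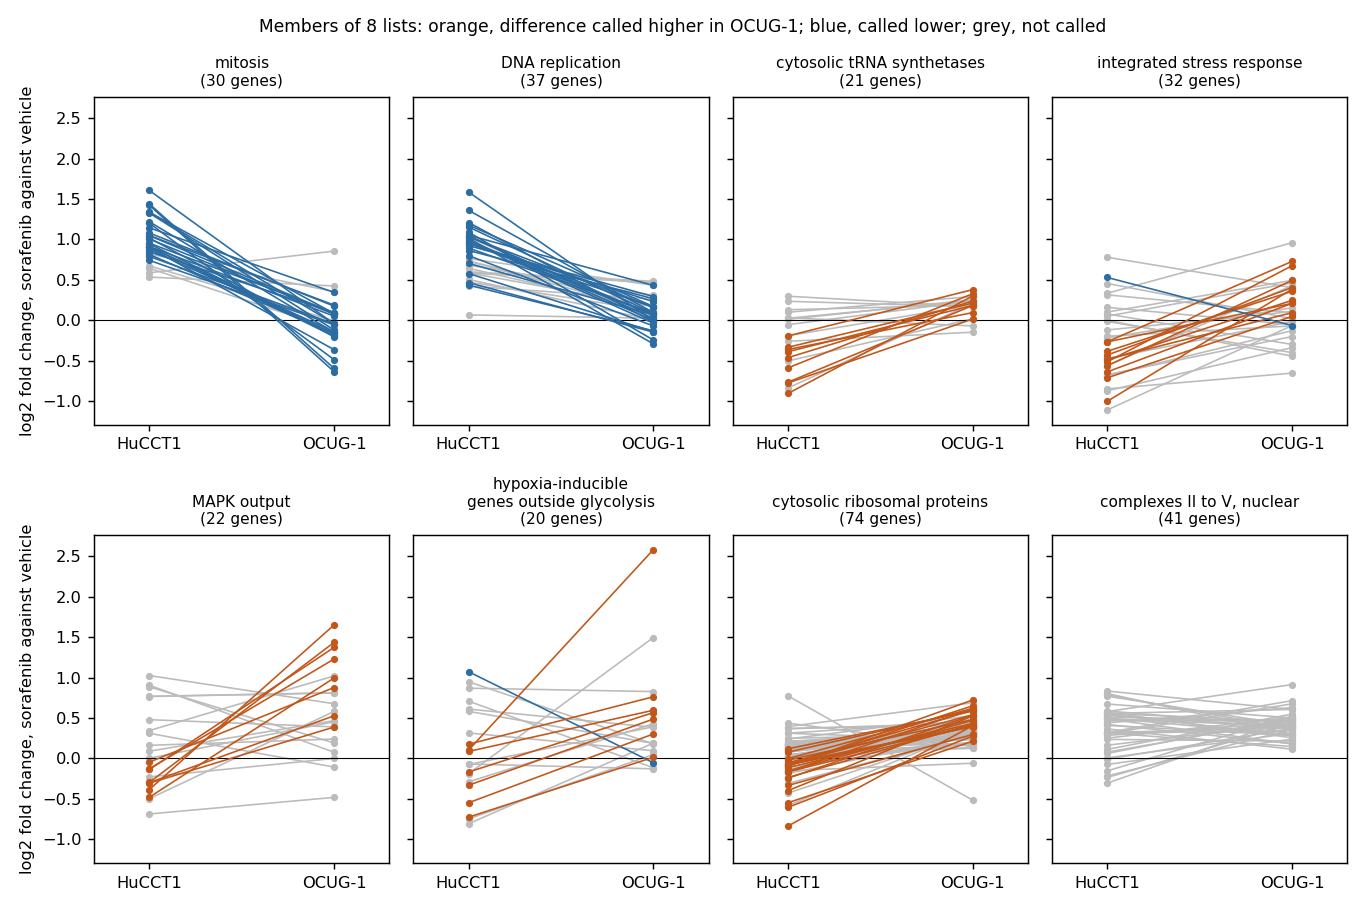
Each line joins the log2 fold change (1.25 µM sorafenib against vehicle, y axis) of 1 gene in HuCCT1, left, to that in OCUG-1, right, for 8 gene lists. Orange lines were called higher in OCUG-1, blue lines lower and grey lines not called. The 25 blue lines of the mitosis list start above 0 in HuCCT1, and all 41 lines of the complexes II to V list are grey.

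Part of the tRNA synthetase genes fell in HuCCT1, and 1 changed in OCUG-1. Of 21 cytosolic tRNA synthetase genes (with the tRNA exporter XPOT), 9 were called higher and none lower, with a median difference of 0.46. In HuCCT1 10 fell and 1 rose (median -0.26), and in OCUG-1 1 rose and none fell (median 0.19). WARS1, the tryptophanyl-tRNA synthetase, was at 233, 207 and 275 CPM in HuCCT1 vehicle and 107, 116 and 159.9 CPM with sorafenib, against 66.8, 79.2 and 73.9 and then 75.4, 94.97 and 101 CPM in OCUG-1. The HuCCT1 groups were apart and the OCUG-1 groups overlapped, and the difference was 1.20 ± 0.22 (adjusted p 0.0031). XPOT fell by 0.77 in HuCCT1, from 247, 248 and 279.6 to 143, 153 and 157 CPM, and its OCUG-1 log2 fold change was 0.02 ± 0.10. The glycyl and threonyl enzymes GARS1 and TARS1 differed by 0.70 and 0.57. The count of 9 was sensitive to single libraries: it was 6 without HuCCT1 vehicle replicate 3, 4 and 3 without HuCCT1 sorafenib replicates 1 and 2, 4 and 5 without OCUG-1 vehicle replicates 1 and 3, and 2 and 5 without OCUG-1 sorafenib replicates 2 and 3.

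Of 32 genes of the integrated stress response, 11 were called higher and 1 lower (median 0.47). In HuCCT1 14 fell and 1 rose, and in OCUG-1 5 rose and 1 fell. TRIB3, a pseudokinase induced by ATF4, was at 179, 235 and 252 CPM in HuCCT1 vehicle and 149.9, 148 and 169 CPM with sorafenib, and at 61.4, 54.99 and 56.4 and then 85.5, 91.2 and 99.3 CPM in OCUG-1. It fell in HuCCT1 (-0.51) and rose in OCUG-1 (0.67) with no overlap in either line, a difference of 1.19 ± 0.17 (adjusted p 0.00054). SHMT2, the mitochondrial serine hydroxymethyltransferase, went the same 2 ways (-0.56 and 0.49), from 213, 215 and 269.9 to 146, 142 and 185 CPM in HuCCT1 and from 92.9, 100.1 and 93.3 to 120.5, 137 and 146 CPM in OCUG-1. The arginine and lysine transporter SLC7A1 fell by 0.71 in HuCCT1, with 0.05 in OCUG-1. The secreted stress cytokine GDF15 fell by 1.00 in HuCCT1, from 8.68, 11.3 and 10.8 to 5.21, 5.48 and 4.62 CPM, and had 0.39 in OCUG-1, for a difference of 1.39, which was not called in the fit of all 24 libraries (adjusted p 0.1). The 1 gene called lower was the factor ATF5, named after its values were seen (-0.59). The stress factor DDIT3 and the glutathione-degrading enzyme CHAC1 were not called in either line, and their differences were -0.39 ± 0.29 and 0.13 ± 0.23.

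The ATF4 composite letters TGATGNAA were in 2 of 17 tRNA synthetase promoters (11.8%) and 4 of 27 integrated stress response promoters (14.8%), against 3.19% of all promoters and 1.51% of those of tested genes, a motif added after the data were seen. The called tRNA synthetase gene with the largest difference whose promoter held it was IARS1, the isoleucyl enzyme, also named after its values were seen. IARS1 was at 202, 215 and 317 CPM in HuCCT1 vehicle, 126, 128 and 178 CPM with sorafenib, and 89.01, 93.3 and 98.6 and 91.1, 109.5 and 118 CPM in the OCUG-1 groups. It fell in HuCCT1 (-0.76) with no call in OCUG-1 (0.18), and the difference was 0.95, called in 15 of 20 alternatives. Its promoter (chr9:92293698-92293947, minus strand, GRCh38.p14) has the letters on the opposite strand, read as TTGCATCA 13 bases before the start and printed in capitals.
IARS1: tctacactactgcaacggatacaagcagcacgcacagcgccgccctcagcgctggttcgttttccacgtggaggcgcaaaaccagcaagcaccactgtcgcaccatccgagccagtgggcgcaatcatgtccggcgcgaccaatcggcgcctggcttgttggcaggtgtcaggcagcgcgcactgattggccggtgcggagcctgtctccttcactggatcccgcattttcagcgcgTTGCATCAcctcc

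Of 18 genes of the endoplasmic reticulum unfolded protein response, 4 were called higher and none lower (median 0.30). Over all tested genes 4.62% were called higher and 4.83% lower. In HuCCT1 4 of the 18 rose and 3 fell (median 0.05), and in OCUG-1 7 rose and none fell (median 0.44). SEL1L, an adaptor of endoplasmic reticulum protein degradation, fell in HuCCT1 (-0.56) and rose in OCUG-1 (0.46). EDEM1, which takes misfolded glycoproteins to the same machinery, fell by 0.80 in HuCCT1 and had 0.44 in OCUG-1. The chaperone HSPA5 rose in OCUG-1, from 593, 699 and 688 to 1062, 1178 and 1269.6 CPM, and was at 1021, 1090.1 and 1066 and then 1100.5, 1208 and 1248 CPM in HuCCT1, a difference of 0.66 ± 0.15. The calls for HSPA5 and for the co-chaperone DNAJB9 (1.29) were lost in the fit of all 24 libraries, at adjusted p 0.23 and 0.17.

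Part of the transcripts that ERK signalling induces rose in OCUG-1. Of 22 genes of this output, 8 were called higher and none lower, with a median difference of 0.41. When 1 library was left out, 6 to 10 were called higher and 0 to 1 lower. With library size alone, DESeq2, no low-count filter, all 24 libraries or the replicate block, 1 was called lower. The same held without both HuCCT1 libraries numbered 3. In OCUG-1 10 rose and none fell (median 0.55), and in HuCCT1 5 rose and 3 fell (median -0.02). ETV5, an ETS factor of the PEA3 group (chr3:186046308-186110318), was at 12.5, 12.6 and 14.1 CPM in OCUG-1 vehicle and 36.5, 40.3 and 46.3 CPM with sorafenib, and at 22.4, 27.4 and 36.8 and then 20.9, 19.1 and 26.6 CPM in HuCCT1. Sorafenib libraries were all above vehicle in OCUG-1 and overlapped it in HuCCT1, and the difference was 2.03 ± 0.24 (adjusted p 0.00013). Its relative ETV4 was at 14.1, 12.5 and 13.6 and then 37.6, 33.4 and 33.04 CPM in OCUG-1 and at 51.7, 48.4 and 53.5 and then 48.8, 43.99 and 47.05 CPM in HuCCT1, a difference of 1.51 ± 0.14 (adjusted p 3.8e-05). PHLDA1, a pleckstrin-domain protein induced by growth factors, rose from 37.8, 35.5 and 38.8 to 86.1, 89.5 and 86.95 CPM in OCUG-1, while HuCCT1 was at 263, 252 and 274 and 241, 243 and 239.6 CPM. The OCUG-1 levels of PHLDA1 stayed below those of HuCCT1 in every library. SPRED1, an inhibitor of RAS and RAF, fell in HuCCT1 (-0.48) and rose in OCUG-1 (0.99).

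The ERK output did not move as a block. DUSP6, the ERK phosphatase, rose in both lines: from 193, 288 and 235 to 424, 447 and 347 CPM in HuCCT1 (0.77) and from 181, 112 and 140.3 to 307, 232 and 221 CPM in OCUG-1 (0.81). Its difference was 0.04 ± 0.26 and was not called. SPRY4 had 0.16 and 0.24, EGR1 0.31 and -0.11, with no call in either line. MYC fell in HuCCT1 (-0.69) and had -0.48 in OCUG-1 (adjusted p 0.078), with a difference of 0.20 ± 0.23. Cyclin D1 (CCND1) differed by 0.69 (adjusted p 0.021), with calls in 15 of 20 alternatives. Among 20 receptor tyrosine kinases and ligands 3 were called higher and none lower (median 0.22). Over all tested genes 4.62% were called higher and 4.83% lower. In HuCCT1 2 of the 20 rose and 2 fell, and in OCUG-1 3 rose and 2 fell. The 3 called higher were TGFA, a ligand of the EGF receptor, MET, the hepatocyte growth factor receptor, and EGFR. TGFA and MET rose by 0.58 and 0.45 in OCUG-1, and EGFR fell by 0.62 in HuCCT1. The differences of MET and EGFR were called in 13 and 14 of 20 alternatives. With the replicate block the receptor and ligand list had 6 higher and 2 lower. It had 1 higher and none lower without HuCCT1 sorafenib replicate 1, OCUG-1 vehicle replicate 1 or 3, or OCUG-1 sorafenib replicate 2 or 3. Without HuCCT1 sorafenib replicate 2 it had 1 higher and 2 lower. Of the 9 tested kinases that sorafenib is known to bind, 1 was called (11.1%), near the 9.46% of all tested genes. It was the collagen receptor DDR1, which fell from 805, 744 and 728 to 394, 392 and 389 CPM in OCUG-1. In HuCCT1 DDR1 was at 178, 173 and 193 and then 154, 149 and 174 CPM. The drug's target kinase BRAF had a difference of 0.21 ± 0.17, not called. Among 20 AP-1 and immediate-early genes none was called higher and 3 lower (median -0.40), among them the nuclear receptor NR4A2, which rose by 1.44 in HuCCT1 and had 0.17 in OCUG-1. The count of lower differences was 6 with the replicate block, 5 without HuCCT1 vehicle replicate 2 and 1 without HuCCT1 sorafenib replicate 2, and without HuCCT1 vehicle replicate 1 the median was -0.17, with 1 called higher and 3 lower.

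**Figure D3:**
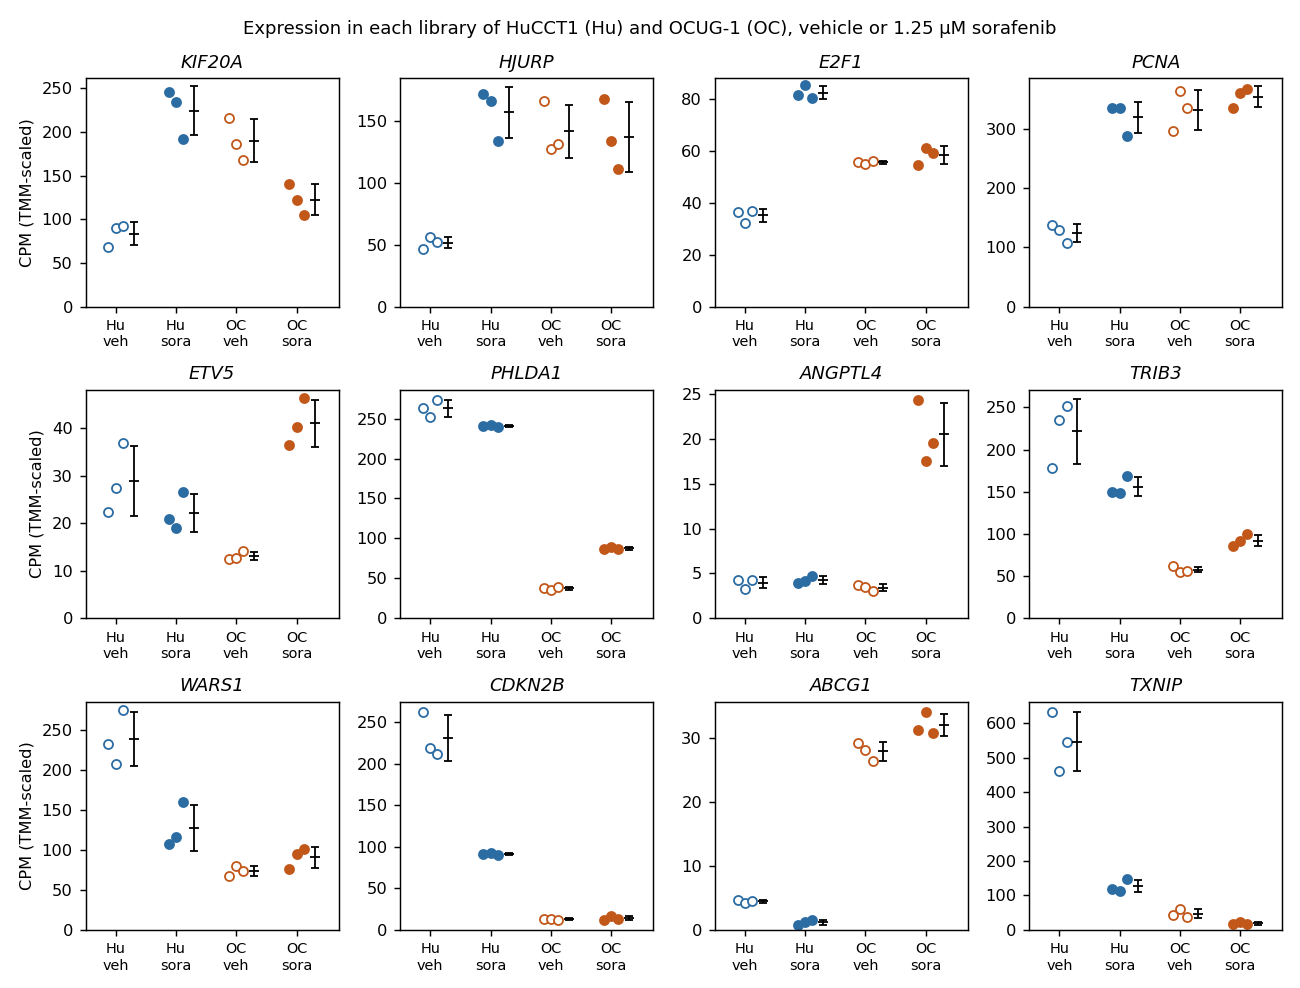
CPM (y axis, from 0, trimmed-mean scaled) of 12 genes in each library: open circles vehicle, filled circles 1.25 µM sorafenib, blue HuCCT1 and orange OCUG-1. Black bars give the mean and SD of 3 libraries. KIF20A, HJURP, E2F1 and PCNA rise in blue and not in orange, and ETV5, PHLDA1 and ANGPTL4 rise in orange and not in blue.

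Genes that hypoxia-inducible factors activate, outside glycolysis, were also higher in the difference for 7 of 20, with 1 lower and a median of 0.55. Of all tested genes, 4.62% were called higher and 4.83% lower. The count of 7 was 5 with library size alone or with trimmed means within each line. When 1 library was left out, 5 to 9 were called higher and 1 to 2 lower. In OCUG-1 8 rose and none fell, and in HuCCT1 3 rose and 3 fell. ANGPTL4, a secreted inhibitor of lipoprotein lipase (chr19:8363289-8374373), was at 3.75, 3.47 and 3.04 CPM in OCUG-1 vehicle and 24.4, 17.6 and 19.6 CPM with sorafenib. In HuCCT1 it was at 4.31, 3.22 and 4.31 and then 3.96, 4.13 and 4.74 CPM, with overlapping groups, so the vehicle levels were near each other and only the OCUG-1 sorafenib libraries stood apart. The difference was 2.48 ± 0.26 (adjusted p 6.5e-05). VEGFA, the angiogenic growth factor, fell in HuCCT1 from 316, 364 and 330.2 to 243, 225 and 223 CPM and was at 272, 253 and 299 and then 347, 346 and 324 CPM in OCUG-1 (adjusted p 0.057). INSIG2, which retains the sterol sensor SCAP, fell in HuCCT1 (-0.33) and rose in OCUG-1 (0.49). The carbonic anhydrase CA12 was the 1 called lower: it rose by 1.07 in HuCCT1, where it was at 1.26, 1.67 and 1.79 CPM in vehicle, and was at 651, 664 and 630.3 and then 637, 625 and 614 CPM in OCUG-1. The glycolysis list itself had 2 higher and 2 lower of 23 (median 0.22). Within it the glucose transporter SLC2A3 fell by 1.07 in HuCCT1 (OCUG-1 0.43), and the hexokinase HK2 fell by 0.43 in OCUG-1 and had 0.22 in HuCCT1.

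Part of the messenger RNAs of cytosolic ribosomal proteins rose in OCUG-1. Of 74, 22 were called higher and none lower, 70 differences were positive and the median was 0.29. In OCUG-1 28 rose and none fell (13 with library size alone), and in HuCCT1 1 rose and 4 fell. RPL35A was at 336, 346 and 327 CPM in OCUG-1 vehicle and 536, 494 and 509 CPM with sorafenib, and at 495, 533 and 493 and then 461, 415 and 483 CPM in HuCCT1, a difference of 0.77 ± 0.13 (adjusted p 0.0018). RPL27 and RPS28 differed by 0.74 and 0.76. The genome holds many processed copies of these genes, and reads shared with them cannot be told apart here. The count of 22 was 14 without HuCCT1 vehicle replicate 2, 10 and 7 without HuCCT1 sorafenib replicates 1 and 2, 11 and 9 without OCUG-1 vehicle replicates 1 and 3, and 7 and 6 without OCUG-1 sorafenib replicates 2 and 3.

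Part of the genes of plasma proteins of the acute phase fell in OCUG-1. Of 18 tested genes of this list, 4 were called lower and none higher (median -0.74), and in OCUG-1 8 fell and none rose (median -0.75). SAA1, serum amyloid A, was at 8.87, 7.71 and 7.61 CPM in OCUG-1 vehicle and 4.02, 3.51 and 3.38 CPM with sorafenib, and at 92.2, 115 and 106 and then 150.4, 136 and 121 CPM in HuCCT1. It fell in OCUG-1 (-1.15) and rose in HuCCT1 (0.38), a difference of -1.53 ± 0.18 (adjusted p 0.00013). SAA2 (-1.17), complement C4A (-1.61) and factor B (CFB, -0.86) were the other 3 called, CFB in 10 of 20 alternatives. SAA1 and SAA2, and C4A and C4B, are near-identical pairs, so the split of reads between their members is uncertain. The fibrinogen chains FGA, FGB and FGG fell in OCUG-1 by 2.12, 1.79 and 1.56. FGA was at 52.4, 64.1 and 51.6 CPM in OCUG-1 vehicle and 9.92, 14.6 and 13.99 CPM with sorafenib, and FGB at 92.4, 119 and 106 and then 30.4, 31.7 and 29.4 CPM. Their HuCCT1 levels were all under 1 CPM and their differences were not called. FGB is also a hepatocyte marker: the summed level of the 10 hepatocyte markers went from between 105 and 129 CPM to between 36.3 and 37.6 CPM in OCUG-1, with APOA1, APOB and TTR at 0, and from between 186 and 201 to between 203 and 249 CPM in HuCCT1. Its part in the result was not tested. Without HuCCT1 sorafenib replicate 2, 2 of the list were called.

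Some of the largest single-gene differences fell outside these lists. The cationic and anionic trypsinogens PRSS1 and PRSS2 went opposite ways in the 2 lines: PRSS1 was at 24.5, 24.8 and 19.8 CPM in HuCCT1 vehicle and 8.35, 10.2 and 8.11 CPM with sorafenib, and at 2.44, 2.04 and 2.55 and then 5.78, 6.28 and 4.05 CPM in OCUG-1. PRSS2 (chr7:142760398-142774564) was at 12.5, 16.9 and 12.98 and then 10.1, 7.74 and 8.62 CPM in HuCCT1 and at 5.00, 3.25 and 5.65 and then 25.02, 23.2 and 17.8 CPM in OCUG-1. The differences were 2.57 ± 0.26 and 2.93 ± 0.28 (adjusted p 5.5e-05 and 3.8e-05), and no library of either gene overlapped between groups within a line. The 2 genes are near-identical copies next to each other, so reads may be shared between them.

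Other genes with large differences also fell in HuCCT1 and rose in OCUG-1. The integrin subunit ITGB3 was at 4.74, 4.51 and 8.41 and then 1.19, 1.55 and 2.63 CPM in HuCCT1 and at 3.75, 7.33 and 7.07 and then 11.9, 15.3 and 18.2 CPM in OCUG-1, a difference of 3.04 ± 0.45 (adjusted p 0.00082). ITGA2, the collagen-binding integrin subunit, was at 316, 249 and 366 and then 119.9, 143 and 226 CPM in HuCCT1 and at 11.7, 19.4 and 18.05 and then 25.6, 35.8 and 45.7 CPM in OCUG-1, a difference of 2.05 ± 0.38. Thrombomodulin (THBD) fell from 97.7, 99.00 and 126 to 47.1, 52.4 and 59.8 CPM in HuCCT1, and rose from 0.227, 0.496 and 0.435 to 0.731, 0.834 and 1.15 CPM in OCUG-1, where every group lay at or below 1.15 CPM. The cytokine TNFSF15 fell by 1.34 in HuCCT1 and rose by 1.70 in OCUG-1. HMGA1, an architectural chromatin protein, was at 1194, 1058 and 1569 and then 491, 513 and 967 CPM in HuCCT1 and at 139.8, 170.2 and 148 and then 199, 309 and 361 CPM in OCUG-1, a difference of 1.88 ± 0.38. The calls for ITGA2 and HMGA1 were lost with no low-count filter, at adjusted p 0.051 and 0.063. NT5E, the ectonucleotidase CD73, rose in OCUG-1 from 8.19, 12.4 and 8.64 to 18.5, 31.96 and 33.6 CPM and was at 272, 219 and 289.7 and then 89.9, 108 and 217 CPM in HuCCT1 (adjusted p 0.067), and xanthine dehydrogenase (XDH) differed by 2.51 ± 0.40.

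In the other direction, PIF1, a DNA helicase, rose from 10.05, 14.2 and 14.2 to 41.9, 38.6 and 29.6 CPM in HuCCT1 and fell from 62.5, 50.03 and 48.05 to 39.6, 30.6 and 27.7 CPM in OCUG-1. Its difference was -2.24 ± 0.24 (adjusted p 8.4e-05). ALDH3A1, an aldehyde dehydrogenase, rose in HuCCT1 from 1.69, 2.47 and 1.71 to 3.58, 3.38 and 3.37 CPM and fell in OCUG-1 from 149, 121 and 141 to 58.4, 56.99 and 60.6 CPM, a difference of -2.06 ± 0.20 (adjusted p 3.8e-05). The clock repressor PER1 was at 47.8, 97.1 and 81.00 and then 148, 154 and 126 CPM in HuCCT1 and at 214, 159 and 171 and then 125, 103 and 97.9 CPM in OCUG-1, a difference of -1.66 ± 0.29. EID3, SLC25A18 and NEURL1B also rose in HuCCT1 and fell in OCUG-1, with differences of -2.61, -1.74 and -1.68, and libraries of EID3 and NEURL1B overlapped in HuCCT1. The mucin MUC16 (CA125), which HuCCT1 expressed at 89.7, 87.5 and 98.2 CPM in vehicle and 70.5, 74.3 and 75.4 CPM with sorafenib, fell in OCUG-1 from a low level of 0.966, 1.71 and 1.52 CPM to 0.122, 0.220 and 0.203 CPM, a difference of -2.56 ± 0.34.

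The cholesterol exporter ABCG1 fell in HuCCT1, from 4.63, 4.19 and 4.53 to 0.691, 1.23 and 1.48 CPM, and was at 29.3, 28.05 and 26.4 and then 31.2, 34.03 and 30.8 CPM in OCUG-1. Its difference was 2.14 ± 0.24 (adjusted p 8.4e-05). CCDC33 fell by 2.04 in HuCCT1 and had 0.54 in OCUG-1. TNFRSF11B, the decoy receptor osteoprotegerin, fell by 1.67 in HuCCT1 and had -0.39 in OCUG-1, a difference of 1.28 ± 0.26. The chemokine CXCL8 rose in OCUG-1 from 665, 720.4 and 1013 to 1365, 1489 and 1870.1 CPM and was at 69.7, 108 and 107 and then 71.2, 77.3 and 62.1 CPM in HuCCT1. The tight-junction claudin CLDN2 rose by 1.04 in OCUG-1 and CLDN1 fell by 0.69 in HuCCT1.

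Not all genes with a large fitted difference had the counts to carry it. CST6 had 0, 3 and 7 reads in the OCUG-1 vehicle libraries and 0 in each sorafenib library, and DDX43 had 2 in each vehicle library and 0 in each sorafenib library. CD1D had 1, 0 and 0 reads in HuCCT1 vehicle and 4, 3 and 2 with sorafenib. GAL3ST1 had 14, 2 and 5 reads in HuCCT1 vehicle and 1, 1 and 0 with sorafenib. These 4 were among the 20 genes named for the widest differences, and their calls held in 11, 6, 9 and 18 of the 20 alternatives. No fold is given for them. Over all calls, 107 of the 1926 were under 1 CPM in both HuCCT1 groups and 90 in both OCUG-1 groups. Of the 1926, 70 are annotated as antisense RNAs, whose reads cannot be told apart from those of the overlapping genes, since the strand setting of the counting is not given in the sources used here. Low-count and antisense genes were not counted over all tested genes, so no excess or lack of them among the calls can be read here.

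Other groups of genes had rises in both lines. Over all tested genes, 9.1% rose in HuCCT1, 5.94% rose in OCUG-1 and 9.46% had a called difference. Of 41 nuclear genes of respiratory complexes II to V, 21 rose in HuCCT1 and 15 in OCUG-1, none fell in either, and no difference was called. At an unadjusted p under 0.05, 7 of these 41 differed, and DESeq2 called none. With a replicate block 10 were called higher and 4 lower, with no low-count filter 3 were higher, and with all 24 libraries 1 was. Without HuCCT1 sorafenib replicate 3, 4 were called higher, and 2 were without OCUG-1 sorafenib replicate 1. The median difference was 0.03, with a median standard error of 0.19 per gene. Of 37 complex I genes, 13 rose in HuCCT1 and 13 in OCUG-1. For complex I 2 differences were called higher and 2 lower (10.8%), near the share over all tested genes. These were 8 and 4 with the block, and 4 and 2 without HuCCT1 sorafenib replicate 3. No complex I difference was called without OCUG-1 vehicle replicate 1 or 3 or OCUG-1 sorafenib replicate 2 or 3, and 1 was without HuCCT1 vehicle replicate 1 or HuCCT1 sorafenib replicate 1 or 2. COX7A2, a subunit of cytochrome oxidase, rose from 34.8, 38.5 and 40.99 to 56.3, 54.9 and 59.7 CPM in HuCCT1 and from 65.8, 83.5 and 72.1 to 136, 136 and 145 CPM in OCUG-1, and its difference of 0.33 ± 0.15 was not called. Of 76 mitochondrial ribosomal protein genes 28 rose and 1 fell in HuCCT1, and 23 rose in OCUG-1, with 2 differences called higher. These were 18 higher and 8 lower with the block, 8 and 3 without HuCCT1 sorafenib replicate 3, 6 and 1 without OCUG-1 sorafenib replicate 1, and 7 and 0 without both HuCCT1 libraries numbered 3. Of 25 genes of cholesterol synthesis and uptake 10 rose in HuCCT1 and 12 in OCUG-1, with 1 difference called higher (6 higher and 1 lower with the block, and 0 to 2 higher and 0 to 1 lower when 1 library was left out). With library size alone these rises were fewer: 11 and 6 for complexes II to V, 10 and 8 for complex I, 16 and 8 for the mitochondrial ribosome, and 4 and 6 for cholesterol genes.

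TXNIP, the thioredoxin-interacting protein that MondoA induces when glucose is plentiful, fell in both lines. It was at 633, 463 and 546 CPM in HuCCT1 vehicle and 119, 114 and 147 CPM with sorafenib, and at 42.1, 60.5 and 37.6 and then 16.3, 22.2 and 16.7 CPM in OCUG-1, with no overlap in either line. The log2 fold changes were -2.11 ± 0.18 and -1.34 ± 0.18, and their difference of 0.77 ± 0.25 missed the threshold (adjusted p 0.066, with calls in 6 of 20 alternatives). The related arrestin ARRDC4 fell by 0.96 in HuCCT1 and had -0.38 in OCUG-1 (difference 0.58 ± 0.22, not called), whereas ARRDC3 rose in HuCCT1 (0.41) and fell in OCUG-1 (-0.47). The histone H2BC21 fell in both lines, by 1.52 in HuCCT1 and 1.95 in OCUG-1. A difference that missed the threshold does not show that the lines responded alike.

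Messenger RNAs from the mitochondrial genome followed the share of mitochondrial counts given above. All 13 differences were negative (median -0.93, median standard error 0.38), and 1 was called lower, MT-CO2, at 8925, 11883 and 5704 CPM in HuCCT1 vehicle and 23498, 19742 and 12859 CPM with sorafenib, and 13468, 10613 and 10838 and 11958, 10696 and 9224 CPM in OCUG-1. In HuCCT1 6 of the 13 rose, and in OCUG-1 none was called. The count of 1 moved with the method and with single libraries. It was 6 with DESeq2, 10 with the replicate block, 3 with all 24 libraries, 0 with no low-count filter and 8 without both HuCCT1 libraries numbered 3. It was 7 without HuCCT1 sorafenib replicate 3, 6 without HuCCT1 vehicle replicate 2, 2 without OCUG-1 sorafenib replicate 1, and 0 without any of the other 9 libraries.

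The remaining lists had at most 5 called members each. Over all tested genes 9.46% were called, 4.62% higher and 4.83% lower. The share of these lists ran from 0% for fatty acid synthesis to 27.8% for NF-kB targets. Autophagy and lysosome had 3 higher and 1 lower of 27 (median 0.53, with 13 higher without HuCCT1 sorafenib replicate 3 and 1 without OCUG-1 vehicle replicate 1 or OCUG-1 sorafenib replicate 2), the TCA cycle 1 and 1 of 22 (0.22), fatty acid synthesis 0 and 0 of 14 (0.33) and fatty acid oxidation 1 and 0 of 17 (0.37). MondoA targets had 0 and 2 of 10 (-0.13), p53 targets 2 and 1 of 20 (0.07), NRF2 targets 0 and 1 of 18 (-0.24) and heat-shock chaperones 0 and 2 of 17 (0.14), these being the near-identical pair HSPA1A and HSPA1B, which fell in OCUG-1. Interferon-stimulated genes had 1 and 3 of 30 (-0.21), NF-kB targets 3 and 2 of 18 (-0.23) and clustered histones 2 and 0 of 23 (0.12). Epithelial adhesion genes had 2 and 1 of 16 (0.17), mesenchymal genes 1 and 1 of 14 (0.27), ABC transporters 1 and 1 of 11 (-0.27) and biliary markers 1 and 0 of 13 (-0.20). Several of these small counts moved with single libraries. Without HuCCT1 sorafenib replicate 3, fatty acid oxidation had 5 higher, the TCA cycle 5 higher and 2 lower, and mesenchymal genes 3 and 2. Interferon-stimulated genes and clustered histones had no call without OCUG-1 vehicle replicate 3 or OCUG-1 sorafenib replicate 2. NF-kB targets had 1 higher and none lower without HuCCT1 sorafenib replicate 2 or OCUG-1 sorafenib replicate 2. With the replicate block, autophagy had 14 higher, interferon-stimulated genes 9 lower and NRF2 targets 7 lower. As reported, none of the 5 hepatocyte, 6 fibroblast, 3 endothelial and 3 immune markers tested was called.

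**Figure D4:**
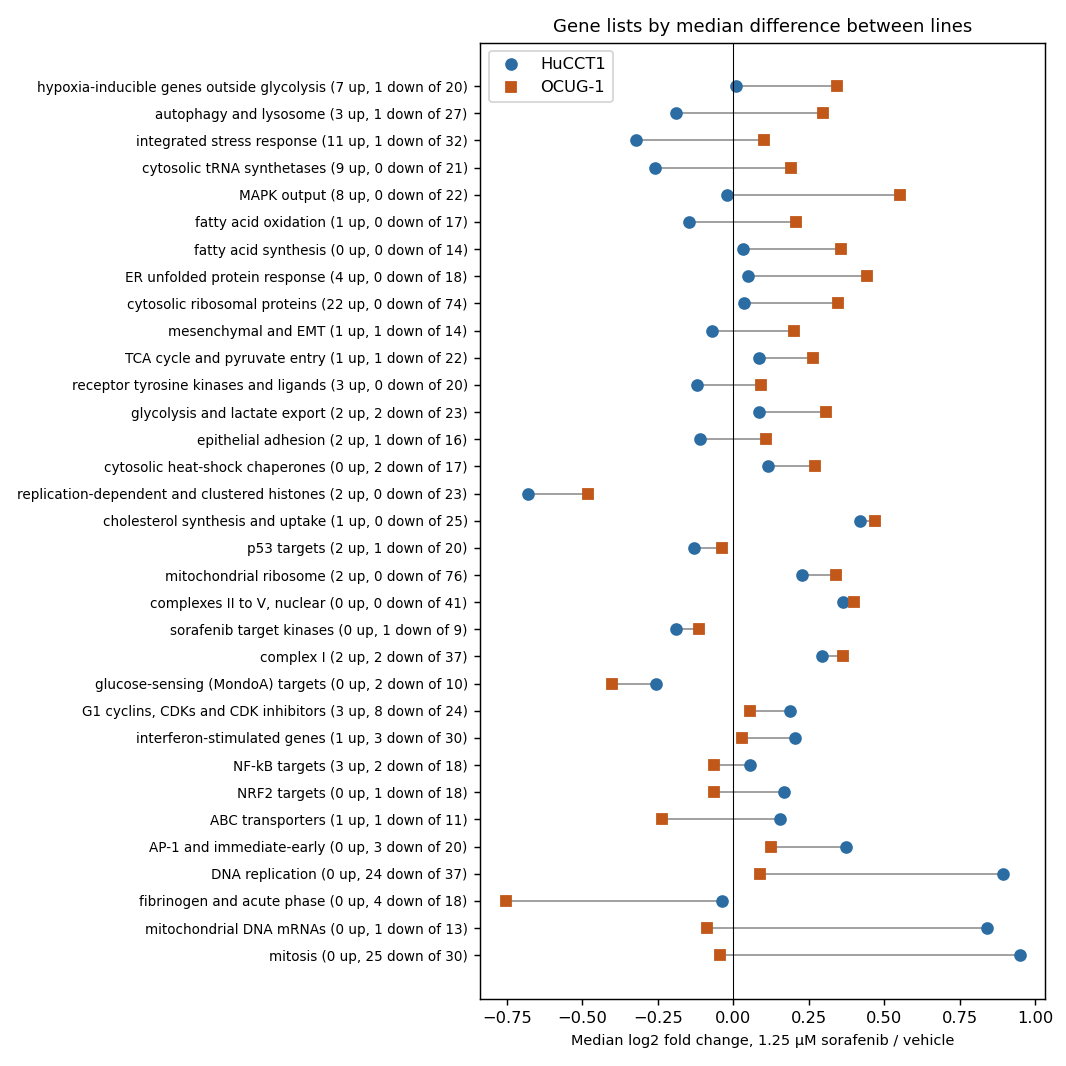
Median log2 fold change (x axis) of the tested members of each gene list in HuCCT1 (blue circles) and OCUG-1 (orange squares), ordered by the median difference between lines, with the members called higher (up) and lower (down) in OCUG-1 beside each name. The mitosis and DNA replication lists lie far right for HuCCT1 and near 0 for OCUG-1, and the lists of complexes II to V and of cholesterol synthesis have nearly the same median in both lines.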

How the data were processed

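Bulk messenger RNA was counted per gene in 12 libraries of HuCCT1 and 12 of OCUG-1, of which the vehicle and 1.25 µM sorafenib libraries were compared. The authors deposited raw counts, 1 table per line with 78724 Ensembl gene IDs each. The submitters' processing notes name fastp 1.3.2, HISAT2 2.2.2, Subread 2.1.1 with featureCounts, MultiQC 1.33, R 4.4.1, DESeq2 1.42.1, bcl2fastq and GRCh38, with no role or order. Annotation release and strand setting: not given in the sources used here. Per the series' design text, extra runs of 4 OCUG-1 libraries were handled as technical repeats, and it does not say which libraries these were.

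Symbols were found for 42179 IDs, and 57302 IDs matched GENCODE 29, which gave coordinates. Both tables were joined, genes were kept by filterByExpr with a minimum count of 10, and libraries were scaled by trimmed means (TMM). edgeR 4.0.16 (R 4.3.3) fitted 1 quasi-likelihood model to 4 groups without covariates, and the contrast was tested over 20368 genes at an adjusted p of 0.05. Standard errors were derived from the log2 fold change and its F statistic. The scripts were tested on simulated data. Replicates of a group differed by more than counting error (chi-square per degree of freedom 5.73 to 59.0, highest for pairs with replicate 3 of HuCCT1). This spread does not show that they came from separate cultures. Each counted as its own replicate, as labelled. Alternatives were library size scaling, TMM within each line, removal of mitochondrial counts, DESeq2 1.42.0, no low-count filter, all 24 libraries, a replicate block, both HuCCT1 libraries numbered 3 left out, and each library left out.

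Named genes were protein-coding genes of at least 10 CPM with the largest called differences (10 per direction), those called in both lines with opposite signs (6 per direction), up to 4 called members per list, and a fixed panel, 137 genes in all. The text names a selection of them, some are not reported here, and the text says where a gene outside this rule is named. The members and the 38 gene lists were chosen with earlier results of these data known. List levels used log2(CPM + 0.5). Motifs were searched in the 250 bases before the start, on both strands, rather than also in the bases after it as first planned, and the TGATGNAA motif was added after the data were seen.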

Additional observations from a re-analysis of the deposited data

Results flagged for a closer look

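Responses to the same dose differed between the lines by a test of the difference itself for 1926 genes (edgeR quasi-likelihood test, adjusted p under 0.05). Of these, 118 protein-coding genes that averaged at least 10 CPM in the highest of the 4 groups also changed in both lines, in opposite directions (75 higher, 43 lower). Listed here are the 6 per direction whose smaller change of the 2 lines was largest, so that genes with a larger difference, such as PRSS2 (2.93), are not among them. The 6 that fell in HuCCT1 and rose in OCUG-1 were PRSS1 (difference 2.57), TNFSF15 (3.04), ITGB3 (3.04), THBD (2.21), ITGA2 (2.05) and HMGA1 (1.88). The 6 that rose in HuCCT1 and fell in OCUG-1 were EID3 (-2.61), PIF1 (-2.24), ALDH3A1 (-2.06), SLC25A18 (-1.74), PER1 (-1.66) and NEURL1B (-1.68). Groups of 3 libraries were not tested for outlying values.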

How the results depend on the processing

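With a replicate block the difference had 5307 calls, HuCCT1 6370 and OCUG-1 5260. Same-numbered libraries of a line had deviations from their group means that correlated at 0.0811 to 0.390 in HuCCT1. In OCUG-1 the correlations were 0.0607 to 0.262, and 4 of 6 libraries in each line correlated best with their own number. Differently numbered vehicle and sorafenib libraries correlated at -0.313 to 0.222 in HuCCT1 (median -0.16) and at -0.228 to 0.165 in OCUG-1 (median -0.07). The same-numbered medians were 0.16 and 0.08. Because the labels do not say what a number shares, the fit as reported did not treat the numbers as pairs. Whether they are pairs was not tested. Leaving out both HuCCT1 libraries numbered 3 gave 3205 OCUG-1 calls. Requiring a difference of at least 1 on the log2 scale left 794 of the 1926. Leaving out 1 library at a time gave 1019 to 3208 calls for the difference, 1709 to 4336 for HuCCT1 and 650 to 2472 for OCUG-1. The HuCCT1 total of 3475 was 2091 without HuCCT1 vehicle replicate 1 and 1826 and 1709 without HuCCT1 sorafenib replicates 1 and 2. The OCUG-1 total of 2013 was 801 and 703 without OCUG-1 vehicle replicates 1 and 3 and 650 and 941 without OCUG-1 sorafenib replicates 2 and 3. The cause was not tested. DESeq2 called 2769 differences, and removal of mitochondrial counts gave 1952. No called difference of a named gene changed sign under these alternatives. The 137 named genes include panel genes whose difference was not called and that had no call to lose. Among those called, 34 lost their call without OCUG-1 sorafenib replicate 2, the most for any setting, and 9 lost it in the fit of all 24 libraries. The list of mitochondrial genome messenger RNAs has no value with mitochondrial counts removed. Genes with few reads in 1 line limit the precision of the difference, and line and medium cannot be told apart.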
